A study of Mus musculus with 131 samples.

Results

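The insulin signaling genes described here were 10 genes chosen by name from the expression table, which holds 24397 genes. They were the insulin receptor gene Insr, the receptor substrate genes Irs1 and Irs2, the phosphatidylinositol 3-kinase subunit gene Pik3r1, the kinase genes Akt1, Akt2 and Gsk3b, the transcription factor genes Foxo1 and Foxo3, and the receptor inhibitor gene Grb14. All 10 were found, and all 10 passed the filter on low values, which asked for 1 FPKM or more on average in some group, as did 11166 genes in all. The DNA inside their coordinates held 3131 tiles of 200 bp with a methylation value in all 3 whole-genome bisulfite sequencing (WGBS) libraries, of 8049849 in the table. It also held 388 tiles of 100 bp in the reduced representation bisulfite sequencing (RRBS) table, of 913286. The study asked which parts of the methylation pattern of mouse liver are made after birth, whether their demethylation needs the enzymes TET2 and TET3, and whether insulin signaling takes part.

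Hepatocytes came from C57Bl mice. The 18 RNA libraries used here were 1 from newborn wild-type (WT) mice (labelled 1 week, with 5 days in the column name), 3 from WT mice at 3 weeks, 3 from WT mice at 15 weeks, and 11 from mice at 15 weeks that had been injected with an AAV8 virus carrying Cre under the Tbg promoter, which is active in hepatocytes. The double knockout (DKO) mice carried floxed Tet2 and floxed Tet3 and received the virus at 1 day (3 libraries) or at 3 weeks (2 libraries). Their controls were WT mice given the same virus at 1 day (3 libraries) or at 3 weeks (3 libraries), so the virus and Cre were shared by both arms. RRBS was read in 14 hepatocyte columns, which were 2 of WT mice at 3 weeks, 3 controls of each injection time, 2 DKO mice of each injection time, and 2 mice with a floxed insulin receptor gene that received this virus right after birth (InsR KO). WGBS was made on 1 library each of newborn WT, adult WT at 15 weeks and adult DKO injected at 1 day. HOMER peak lists covered open chromatin (ATAC, 2 WT and 2 DKO livers), the liver transcription factor HNF6 (2 WT and 2 DKO), H3K27ac and H3K4me1 (hepatocytes of 15 weeks, 1 WT and 1 DKO injected at 1 day each) and 5-hydroxymethylcytosine (5hmC, hepatocytes of 1 WT sample, taken from young and not adult mice per the study's methods). For the ATAC and HNF6 livers the labels give a deletion after birth and no age. The paper describes the ATAC samples as hepatocytes of adult mice at 15 weeks, with the deletion at 1 day. For the InsR KO mice the labels give no age, and the paper set them against WT mice of 15 weeks or older. A further 4 RRBS columns held hepatocytes of 1 week kept in vitro (2 columns), fat of 25 weeks and neutrophils of 36 weeks (1 each). Other cells of the liver keep their alleles in these mice, and the knockout libraries hold whatever share of unrecombined cells the preparation left.

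In liver, insulin binds its receptor on hepatocytes, and the receptor phosphorylates IRS1 and IRS2. These dock phosphatidylinositol 3-kinase, whose lipid product recruits AKT1 and AKT2. AKT phosphorylates GSK3B, which frees glycogen synthesis, and FOXO1 and FOXO3, which then leave the nucleus and stop driving the genes of fasting. DNA methylation at CpG sites is removed by way of 5hmC, which TET enzymes make, and enhancers inside introns are a frequent place for it.

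Whole-library values were these. The summed level of 7 hepatocyte markers lay between 9179 and 16140 FPKM in every group, and markers of Kupffer cells, endothelial cells, stellate cells and cholangiocytes summed to at most 15.9, 14.3, 45.8 and 7.25 FPKM. Leukocyte markers summed to 18.2 FPKM in the newborn library and to at most 0.376 FPKM elsewhere. Erythroid markers (3 genes) summed to 52.0 to 70.5 FPKM in the controls injected at 1 day and to 11.4 to 14.4 FPKM in the DKO mice injected at 1 day, and to 492 FPKM in the newborn library. The Tet2 level lay between 2.82 and 4.08 FPKM in the DKO mice injected at 1 day and between 0.890 and 2.13 FPKM in their controls, and between 0.824 and 1.84 against 2.08 and 2.99 FPKM after injection at 3 weeks. An FPKM over the whole transcript does not check the loss of some exons. Xist was high (48.0 to 88.1 FPKM) in all 3 WT libraries of 3 weeks and in replicate 3 of the controls injected at 3 weeks, and it was at most 0.0609 FPKM in the other libraries, so age and sex cannot be told apart in the comparison of 3 with 15 weeks. Expression of Insr in the InsR KO mice was not analysed here. Each RNA column, and each RRBS column that was tested, carries its own number, read here as that of an animal. The labels say nothing more on separate preparations, so the p-values measure the spread between these samples.

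The methylation result rested on short stretches of DNA. There were 24 of them, made up of the RRBS tiles called in any comparison, with neighbours joined, and of the WGBS tile with the largest fall in each gene. Those shown are 9 intronic ones that the single-mouse values and the longest runs turn on. They are given 5′ to 3′ on the plus strand of mm9, with every CpG in capitals.
Insr intron 2, chr8:3252701-3252800: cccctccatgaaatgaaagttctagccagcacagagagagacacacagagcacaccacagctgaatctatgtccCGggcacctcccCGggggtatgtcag
Insr intron 2, chr8:3252901-3253000: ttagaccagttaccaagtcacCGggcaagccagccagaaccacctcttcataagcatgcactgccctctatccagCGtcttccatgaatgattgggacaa
Insr intron 1, chr8:3270201-3270400: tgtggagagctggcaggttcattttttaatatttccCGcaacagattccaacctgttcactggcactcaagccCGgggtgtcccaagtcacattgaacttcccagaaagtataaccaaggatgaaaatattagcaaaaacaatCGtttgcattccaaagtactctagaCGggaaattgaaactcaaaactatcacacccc
Irs1 intron 1, chr1:82241701-82241800: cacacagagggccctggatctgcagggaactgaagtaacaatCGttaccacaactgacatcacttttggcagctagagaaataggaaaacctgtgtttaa
Pik3r1 intron 2, chr13:102490701-102490800: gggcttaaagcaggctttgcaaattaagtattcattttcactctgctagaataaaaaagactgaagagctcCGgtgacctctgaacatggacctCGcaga
Pik3r1 intron 1, chr13:102528101-102528300: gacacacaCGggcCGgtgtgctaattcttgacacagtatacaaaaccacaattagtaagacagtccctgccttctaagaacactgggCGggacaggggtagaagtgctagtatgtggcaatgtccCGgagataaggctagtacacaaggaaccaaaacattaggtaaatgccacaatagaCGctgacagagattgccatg
Gsk3b intron 1, chr16:38118001-38118200: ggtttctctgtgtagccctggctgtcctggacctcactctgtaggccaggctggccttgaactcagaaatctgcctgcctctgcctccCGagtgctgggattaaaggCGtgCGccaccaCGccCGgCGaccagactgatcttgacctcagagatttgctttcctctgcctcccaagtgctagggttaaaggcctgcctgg
Foxo3 intron 3, chr10:41911901-41912000: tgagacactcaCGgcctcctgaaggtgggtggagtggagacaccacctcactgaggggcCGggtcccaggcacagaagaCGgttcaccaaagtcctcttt
Foxo3 intron 2, chr10:41946001-41946200: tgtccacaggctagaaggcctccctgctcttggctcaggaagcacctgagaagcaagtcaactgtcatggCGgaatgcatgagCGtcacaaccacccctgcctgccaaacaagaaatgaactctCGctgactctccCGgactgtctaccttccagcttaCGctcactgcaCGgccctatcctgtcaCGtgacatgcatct

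The 24 stretches held between 1 and 7 CpG sites each, so the methylation of a tile rested on few positions. The FOXO core GTAAACA, looked for on both strands, was in none of them, and the HNF6 core ATCAAT was in 1, the Insr intron 5 tile described below. When 3 or 5 spaced words of 30 bases from each stretch were looked up in mm9 by exact match, every word was found once for 21 of the 24. Copies with mismatches were not looked for. The Gsk3b tile printed here held words of a repeat with up to 27096 exact copies, and only 2 of its 5 words were found once. RefSeq promoter windows (GRCm38.p6, 300 bases around the start) matched 9 of the 10 genes, with Insr not matched. The main windows were rich in CpG, with 42 sites for Akt1, 41 for Irs2, 35 for Foxo3, 34 for Pik3r1, 31 for Foxo1, 30 for Grb14, 28 for Irs1 and 21 for Gsk3b, against a median of 7 over 32851 promoters, whereas the highest of the 4 Akt2 windows held 12. The FOXO core stood in 1 of the 14 member windows, a second start of Akt1, and in 3.65% of all promoters. The HNF6 core stood in none of the 14 and in 7.54% of all promoters.

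WGBS showed that many places inside these genes lost methylation between the first week and adulthood. Of the 3131 tiles, 268 (8.56%) fell by at least 35 percentage points (the limit the study's methods set) from newborn to adult WT, against 2.10% of the 3384457 tiles inside all genes and 3.33% of the 1666806 tiles inside genes tested for expression. The mean of all member tiles was 77.3% in newborn, 68.2% in adult WT and 78.5% in adult DKO hepatocytes. At the 268 tiles that fell, the means were 75.4%, 21.8% and 76.0%, and 242 of them (90.3%) were at least 35 points higher in the DKO than in the adult WT library, against 78.8% of the tiles that fell in all genes and 84.8% of those in genes tested for expression. The adult WT library enters both counts and chose the tiles, so its own error raises both. With 1 library a stage and no coverage in the table, these differences have no replicate check.

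The loss was uneven among the genes. Pik3r1, which encodes the regulatory p85 subunit of phosphatidylinositol 3-kinase, lost methylation at 59 of 377 tiles (15.6%), and Foxo3 at 61 (14.5% of its tiles). In the other genes with any loss the share lay between 5.43% (Gsk3b, 31 of 571) and 7.75% (Insr, 33 tiles), with 16 of 212 tiles in Irs1, 7 of 96 in Akt1, 14 of 194 in Akt2, 22 of 335 in Foxo1 and 25 of 406 in Grb14. Irs2, a substrate of the receptor that liver uses heavily, lost methylation at none of its 92 tiles. It gained at least 35 points at 4, all in intron 1. At chr8:11002801-11003000 of Irs2 methylation was 4.00% in newborn, 41.2% in adult WT and 67.5% in adult DKO hepatocytes, so the DKO library was not below the adult there. Irs1 and Akt1 gained at 1 tile each.

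Lost tiles lay mostly in introns and far from the gene start. Of the 268, 253 (94.4%) were intronic, 8 lay in a promoter, 5 in coding exons and 2 in a 3′ UTR, while 87.5% of the 2863 other tiles were intronic. The coding tiles were in exons 3 and 10 of Insr and exon 1 of Irs1, which holds most of the protein, and the 3′ UTR tiles were in Irs1. Of the 8 promoter tiles, 6 were at a second start of Akt2, where chr7:28392601-28392800 read 90.5%, 6.12% and 86.8%. The 7 promoter tiles of Gsk3b stayed at or below 3.76% in each of the 3 libraries. Lost tiles held a mean of 2.50 CpG sites and other tiles 2.94, and both had a mean GC content of 45.1%.

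**Figure D1:**
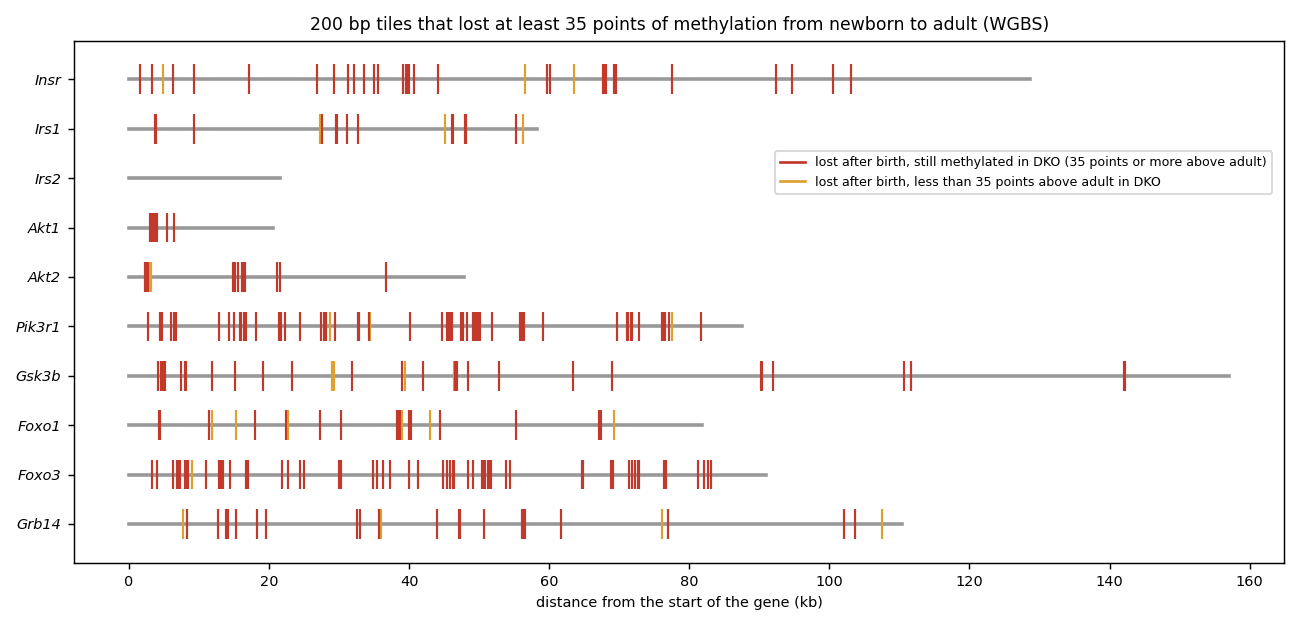
Position of each WGBS tile that fell by at least 35 points from newborn to adult WT, in kb from the gene start along each of the 10 genes. Each tick is a tile, red where the DKO library was at least 35 points above the adult WT library and orange where it was less, and the grey line is the length of the gene. The map shows the many lost tiles of Pik3r1 (59) and Foxo3 (61) spread along their introns, and none in Irs2.

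The longest runs of lost tiles gave the clearest single sites. In Foxo3 intron 2, 6 lost tiles lay between chr10:41944801-41946200, about 50.4 kb from the start, and the tile chr10:41946001-41946200, printed above, read 95.3% in newborn, 0% in adult WT and 85.5% in adult DKO hepatocytes. Foxo3 encodes a transcription factor that insulin keeps out of the nucleus. In Pik3r1 intron 2, chr13:102488001-102488200 went from 100% to 8.11% with 85.7% in the DKO, and an HNF6 peak covered it in both WT and in neither DKO liver. The same run of Pik3r1 held 5 lost tiles up to position 102489200.

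Insr, Grb14 and Irs1 showed sites of this kind as well. In Insr, which encodes the receptor itself, a tile of coding exon 3 at chr8:3211401-3211600 read 79.4%, 4.44% and 89.1%, and a tile of intron 5 at chr8:3202001-3202200 read 96.8%, 21.2% and 91.7%. Grb14 encodes an adaptor that binds the active receptor and inhibits it. Its intron 2 tile at chr2:64804601-64804800 read 88.9%, 1.67% and 91.5%. In Irs1 the tile chr1:82239801-82240000 read 87.5%, 0% and 87.0%. Foxo1, the main FOXO factor of liver gluconeogenesis, lost methylation in intron 1 at chr3:52094601-52094800, with 87.6%, 4.85% and 75.0%. Of the 5 words looked up in this Foxo1 tile, 4 were found once in mm9, and the most copies of a word was 4. The part of misplaced reads in its values was not tested.

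Peaks of enhancer marks covered lost tiles more often than the other tiles of these genes. H3K4me1 peaks of WT hepatocytes covered 243 of 268 lost tiles (90.7%) and 58.9% of the others, and H3K27ac peaks covered 61.2% and 36.0%. WT 5hmC peaks covered 33.2% and 17.9%. An ATAC peak of at least 1 WT library covered 8.96% of lost tiles and 2.93% of the others, and of at least 1 DKO library 4.48% and 2.93%. Peak calls that held in both libraries were few. An ATAC peak in both WT and neither DKO liver covered 3 lost tiles (2 of Irs1 near 29.7 kb and 1 of Pik3r1 at 14.3 kb), and the reverse covered 3 (Insr, Pik3r1 and Foxo3). For HNF6 these counts were 2 (Pik3r1) and 4 (Pik3r1, Foxo1 and Foxo3). Neighbouring tiles share peaks, so the tiles are not independent and no test was made.

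Inside the 10 genes there were 51 and 59 ATAC peaks in the WT and 43 and 62 in the DKO livers. HNF6 peaks numbered 10 and 12 in WT and 13 and 30 in DKO livers, and the whole lists held 4387 and 9355 against 9305 and 34665, so the larger number in the second DKO liver went with a longer list. H3K27ac peaks numbered 121 in WT and 111 in DKO, and H3K4me1 peaks 75 and 92. Irs2 held at most 1 ATAC peak in any liver. Gsk3b had 23 H3K27ac peaks in WT and 12 in DKO, the widest difference of any member in that mark, in 1 library each.

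RRBS read some of these places in single mice. After deletion of Tet2 and Tet3 at 1 day, 11 of the 163 member tiles that could be tested were more methylated than in the controls and none was less (limma, adjusted p under 0.05 and at least 35 points), while 1.32% of the 304711 tiles tested were called higher. They were 3 in Pik3r1, 2 each in Insr, Foxo3 and Gsk3b, and 1 each in Irs1 and Akt2. After deletion at 3 weeks 4 tiles were called higher (2 in Pik3r1, 1 each in Foxo3 and Gsk3b; 0.351% of all tiles). WT mice at 3 weeks were higher than the adult controls at 3 member tiles, in Foxo3, Pik3r1 and Gsk3b (0.257% of all tiles). These mice carry the numbers of RNA libraries with high Xist, so age and sex cannot be told apart in RRBS either. The InsR KO columns have values at fewer tiles than the controls of 1 day, and a fit without them tested 237 member tiles and called 18, 7 and 7 (1.27%, 0.327% and 0.262% of all tiles), an alternative chosen after the data were seen. Akt1, Foxo1, Irs2 and Grb14 had no called tile in either fit, with 23, 17, 19 and 5 tiles tested in the fit with the InsR KO mice and 32, 23, 26 and 5 without them. Over RRBS tiles inside lost WGBS tiles, Akt1 read 76.7% and 88.2% in DKO mice of 1 day and 20.3% to 32.8% in their controls. Foxo1 read 72.1% and 94.7% there against 38.3% to 56.3%. These means rest on 2 or 3 tiles a mouse and were not tested.

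At Insr, 5 tiles were called in at least 1 fit, all in introns 1 and 2. At chr8:3252901-3253000 the controls injected at 1 day had 0%, 0.794% and 0%, and the DKO mice injected at 1 day 47.7% and 62.7%, with no overlap (difference 55.0 points, SE 4.35, limma adjusted p 0.000134). Deletion at 3 weeks left 18.7% and 11.4% at this tile, against 4.32%, 1.72% and 0% in its controls (adjusted p 0.394 in limma). WT mice at 3 weeks had 9.58% and 14.3%. The Insr tile was thus low in these WT mice of 3 weeks, and the deletion at 3 weeks left it below each DKO mouse injected at 1 day. At the neighbouring Insr tile chr8:3252701-3252800 WT mice at 3 weeks were at 83.7% and 46.5%, DKO mice injected at 1 day at 50.0% and 71.7%, and the controls of both times between 0% and 6.67%.

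The Insr intron 1 site, chr8:3270201-3270400, covered a pair of RRBS tiles. Its upstream tile in coordinates read 4.63%, 0.917% and 0% in controls injected at 1 day and 81.7% and 57.8% in the DKO mice (difference 67.9 points, limma adjusted p 0.0230 without the InsR KO mice). WT mice at 3 weeks had 71.4% and 90.3% there, so the Insr site was methylated in these mice. Age and sex cannot be told apart in this difference from the adult controls. After deletion at 3 weeks the DKO mice stood at 77.5% and 64.0% and their controls at 0%, 0% and 30.3% (adjusted p 0.0837 in limma). The control at 30.3% carries the number of the RNA library with high Xist.

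Pik3r1 had the most called tiles. At chr13:102528101-102528200 in intron 1, 10.0 kb from the start, the controls of 1 day read 3.41%, 2.54% and 5.06% and the DKO mice 93.4% and 71.5% (difference 78.8 points, SE 7.87, limma adjusted p 0.000560). After deletion at 3 weeks it read 78.2% and 79.3% against 16.2%, 3.30% and 2.50% in controls (difference 71.4 points, limma adjusted p 0.00487), and WT mice at 3 weeks had 49.6% and 51.4%. The Pik3r1 tile was therefore partly methylated in these WT mice of 3 weeks, low in all 6 adult controls and high after either deletion. At chr13:102490701-102490800 in intron 2 both DKO mice of 1 day read 100%, and the controls 11.1%, 2.27% and 50.0%, which is a wide spread. At chr13:102465101-102465200, a promoter tile of Pik3r1 73.0 kb from the start, deletion at 1 day left 51.3% and 56.7% (controls 3.42%, 8.57% and 0%) and deletion at 3 weeks 18% and 26.3% (controls 4.08%, 0% and 2.70%).

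Foxo3 had called tiles in introns 2 and 3. At chr10:41911901-41912000 in intron 3 the controls of 1 day read 31.1%, 37.3% and 20.7%, the DKO mice of 1 day 91.7% and 91.0% (difference 61.6 points, SE 6.38, limma adjusted p 0.000701), the DKO mice of 3 weeks 81.4% and 73.7%, and WT mice at 3 weeks 69.7% and 73.8%. Within the run of lost WGBS tiles, the Foxo3 tile chr10:41946101-41946200 read 0% in all 3 controls of 1 day, 61.8% and 87.1% in DKO mice of 1 day, 86.7% and 94.4% in DKO mice of 3 weeks and 98.3% and 100% in WT mice at 3 weeks. Both DKO groups lay above all of their controls at these Foxo3 tiles. Another Foxo3 tile, at chr10:41915301-41915400, was called after deletion at 1 day (adjusted p 0.0310 in limma) and missed the threshold when the InsR KO mice were left out (adjusted p 0.0526 in limma).

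At Irs1 the intron 1 tile chr1:82241701-82241800, which holds 1 CpG, read 2.00%, 8.82% and 12.1% in controls of 1 day, 96.7% and 97.6% in DKO mice of 1 day and 88.6% and 96.2% in DKO mice of 3 weeks (differences 89.5 and 82.5 points, limma adjusted p 0.00103 and 0.00708 without the InsR KO mice). A coding tile of Irs1 exon 1, chr1:82284301-82284400, rose after deletion at 1 day by 52.4 points (limma adjusted p 0.0384). Akt2, which encodes the AKT form most tied to glucose handling, had 1 called tile in intron 1 (chr7:28387901-28388000), with 0%, 0% and 1.18% in controls and 23.4% and 52.2% in DKO mice of 1 day (limma adjusted p 0.0110).

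Gsk3b, the kinase that restrains glycogen synthase, had the widest difference of the 163 tiles after deletion at 1 day, at chr16:38118001-38118100. The controls of 1 day read 1.67%, 0% and 1.49% and the DKO mice 83.3% and 84.2% (difference 82.7 points, SE 9.62, limma adjusted p 0.00141), and WT mice at 3 weeks had 96.4% and 84.1%. The DKO mice of 3 weeks read 84.3% and 58.3% and their controls 7.50%, 18.9% and 26.9% (limma adjusted p 0.0435, and 0.0586 without the InsR KO mice). Part of this sequence has many copies in the genome, as given above, and the part of misplaced reads in the values was not tested.

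**Figure D2:**
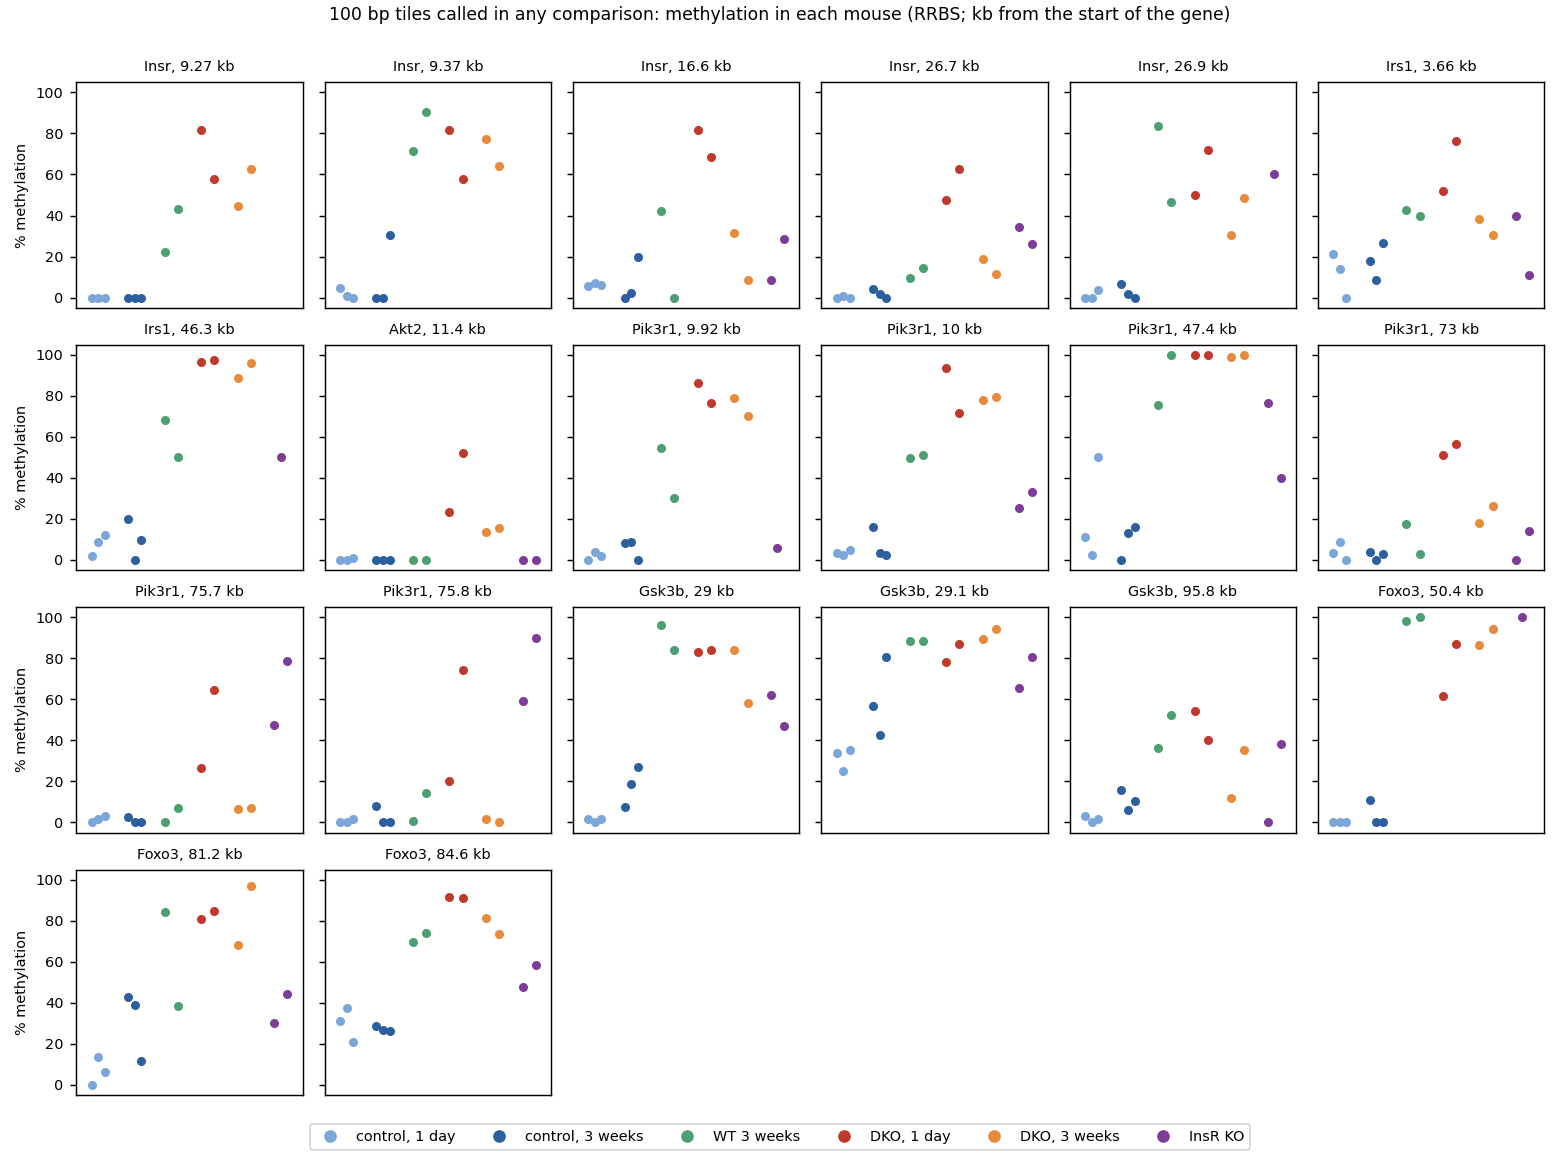
Percent methylation of 20 RRBS tiles of member genes called in at least 1 comparison, each point a mouse and each colour a group (WT at 3 weeks, controls and DKO of both injection times, InsR KO). The controls lie near 0% at most tiles, such as 0% to 6.67% at the Insr tile 26.9 kb from the gene start (chr8:3252701-3252800), and the DKO mice injected at 1 day lie above all controls of 1 day in each of the 20. Most of these tiles were chosen by their call in that same comparison, so the separation follows largely from the choice.

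Deletion of the insulin receptor itself was read in 2 mice against the same 3 controls of 1 day that the Tet deletion used. Of the 163 tiles 3 were called higher and none lower, while 0.132% of all tiles were called higher and 0.283% lower. A pair of them adjoined each other in Pik3r1 intron 7, where chr13:102462301-102462400 read 0%, 0% and 1.51% in controls and 59.4% and 90.0% in InsR KO mice (difference 74.2 points, SE 13.9, limma adjusted p 0.0454), and chr13:102462401-102462500 read 0%, 1.77% and 3.08% against 47.6% and 79.0% (limma adjusted p 0.0324). At these Pik3r1 tiles the DKO mice of 1 day read 20.0% and 74.4%, and 26.7% and 64.6%, and the DKO mice of 3 weeks at most 6.99%. The means of the WT mice at 3 weeks were 7.37% and 3.45%, so these tiles were low in those mice too. The other called tile was the Gsk3b tile with repeat copies, at 61.9% and 47.1% (limma adjusted p 0.0377). Leaving out any 1 of the 3 controls ended all 3 calls, and leaving out InsR KO replicate 2 left 1 and replicate 1 left 5.

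The receptor gene itself was read in the InsR KO mice at few tiles. At the Insr tile chr8:3252901-3253000 they had 34.3% and 26.1%, above all controls, and the difference of 30.0 points passed the p threshold (limma adjusted p 0.0130) but not the limit of 35 points. At the Foxo3 tile chr10:41911901-41912000 they had 47.5% and 58.3% against 20.7% to 37.3% in controls (limma adjusted p 0.197). At the Akt2 tile chr7:28387901-28388000 both mice read 0%. Values existed in the InsR KO columns for 47.9% of all tiles and in the controls of 1 day for 72.9%. Inside Insr these shares were 55.6% and 91.7%.

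The mean over all shared RRBS tiles of a gene gave 1 value a mouse. After deletion at 1 day it was 56.7% ± 0.400 (SD, n = 2) in Insr against 37.4% ± 0.127 (n = 3) in controls, 43.6% ± 2.56 against 25.7% ± 0.706 in Pik3r1, 45.2% ± 3.46 against 27.2% ± 3.03 in Gsk3b, and 55.8% ± 1.73 against 41.4% ± 0.601 in Foxo3. The groups did not overlap in these 4 genes or in Irs1 (47.6% against 33.4%), Irs2 (14.9% against 9.28%), Akt1 (77.3% against 70.1%) and Akt2 (41.4% against 32.3%), and they overlapped in Foxo1 and Grb14. With 2 mice against 3 the smallest p of a two-sided exact permutation test is 0.1, so these comparisons cannot pass 0.05. How many of all genes show no overlap in such means was not counted. Over all tiles tested, 1.32% were called higher after deletion at 1 day and 0.0489% lower. The InsR KO mice were above the controls by 10.8 points in Insr, 8.42 in Pik3r1 and 8.41 in Gsk3b without overlap, and by 2.54 points in Foxo3 with overlap. WT mice at 3 weeks were below the 6 adult controls in Irs2 (3.71% ± 0.198 against 9.26% ± 1.65, two-sided exact permutation p = 0.0357, unadjusted and the smallest possible). With medians over tiles the Irs2 groups overlapped (0% against 0.59%, two-sided exact permutation p = 0.786). These mice were above the controls by 12.3 points in Insr, 7.27 in Irs1 and 3.75 in Akt1, each with that same smallest p. They were also above them by 11.6 points in Gsk3b and 8.73 in Foxo3. Age and sex cannot be told apart here.

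Expression followed next, as FPKM per library. The receptor gene Insr was at 15.0 FPKM in the newborn library, at 17.1, 11.3 and 16.7 at 3 weeks and at 18.7, 20.2 and 21.5 in WT mice of 15 weeks. Controls injected at 1 day had 19.9, 20.1 and 15.9 FPKM of Insr and the DKO mice 23.2, 15.9 and 23.5, which overlap (log2 difference 0.14, SE 0.19, limma adjusted p 0.634). After injection at 3 weeks controls had 18.8, 17.9 and 24.8 FPKM and DKO mice 15.6 and 12.7. The DKO mice of 3 weeks lay below their controls for Insr, and the difference missed the threshold (-0.49, SE 0.21, limma adjusted p 0.158). Insr RNA thus had no called change after either deletion.

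**Figure D3:**
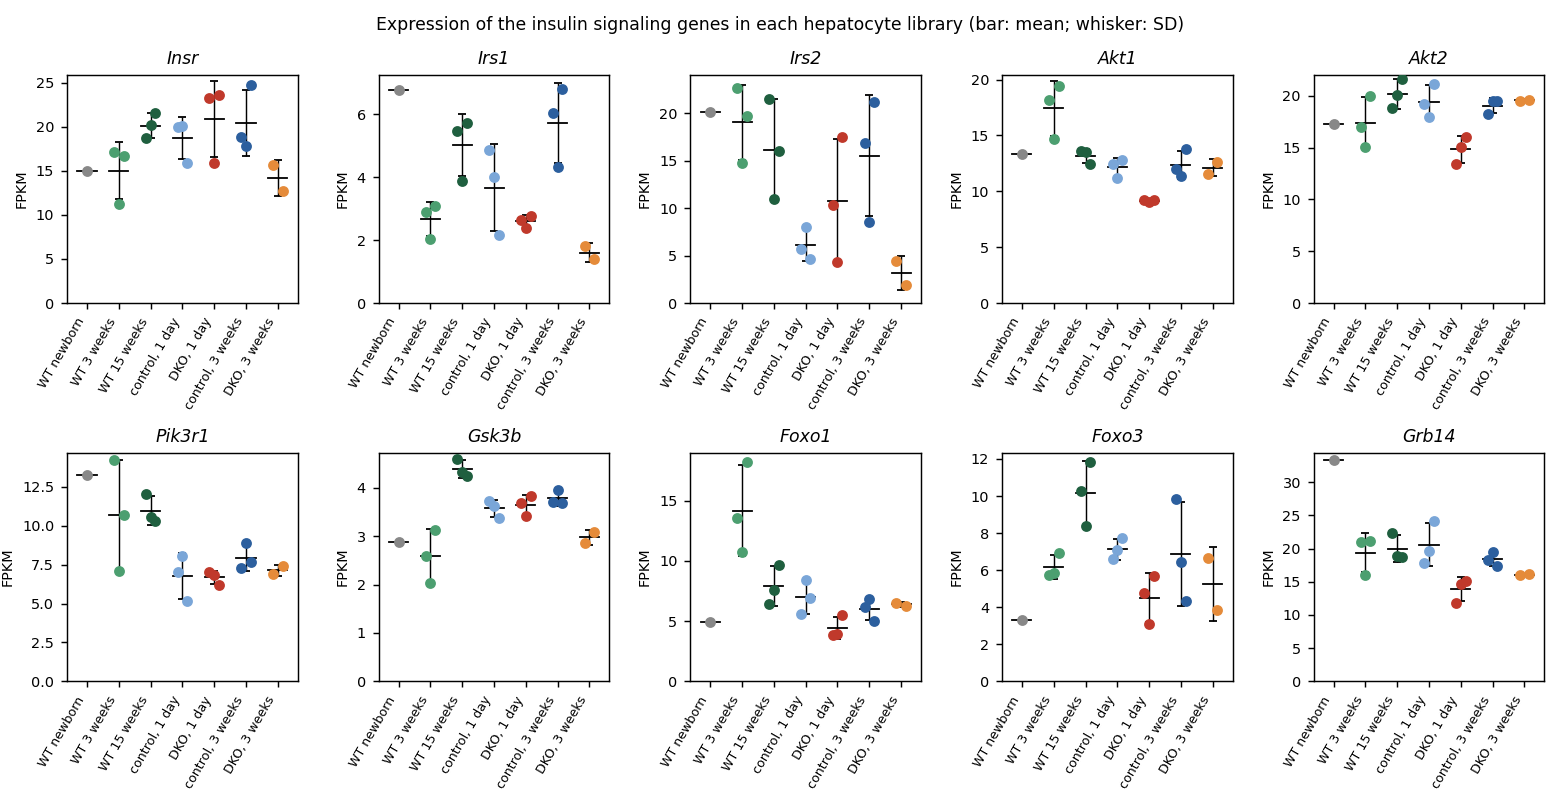
FPKM of the 10 insulin signaling genes, each panel a gene and each point a library, by group (newborn, WT at 3 and 15 weeks, controls and DKO of both injection times), with a bar for the mean and whiskers for the SD. Irs1 is lowest in the DKO mice injected at 3 weeks (1.39 to 1.81 FPKM), where Irs2 reads 1.92 to 4.41 FPKM, and Foxo1 is highest at 3 weeks (10.7 to 18.2 FPKM).

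The substrates Irs1 and Irs2 had the called changes of the deletion at 3 weeks. Irs1 read 6.03, 4.32 and 6.78 FPKM in the controls and 1.81 and 1.39 in the DKO mice (log2 difference -1.36, SE 0.24, limma adjusted p 0.00790), and Irs2 read 16.9, 8.56 and 21.2 against 4.41 and 1.92 (-1.97, SE 0.48, limma adjusted p 0.0342). The groups do not overlap in either gene, and 2 of 10 members were called lower against 5.25% of all genes called in either direction. Hepatocyte markers summed to 9179 to 11300 FPKM in these controls and 13810 to 16140 in these DKO mice, and cholangiocyte markers to 1.2 to 3.37 and 0.775 to 0.787, and their part in the result was not tested. Without replicate 3 of the controls, the library with high Xist, Irs2 missed the threshold (-1.72, limma adjusted p 0.0883). It also did so without control replicate 1 (adjusted p 0.0888), DKO replicate 1 (0.0512) or DKO replicate 2 (0.368, all limma), and Irs1 without DKO replicate 2 (-1.24, limma adjusted p 0.127).

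After deletion at 1 day the substrates gave another picture. Irs1 had 4.84, 3.99 and 2.14 FPKM in controls and 2.65, 2.37 and 2.75 in DKO mice (-0.33, limma adjusted p 0.296). Irs2 had 5.71, 7.97 and 4.62 against 10.3, 4.34 and 17.4 (0.57, SE 0.43, limma adjusted p 0.367), and both genes overlapped between the groups. The difference between the effects of the deletion at the 2 times was itself tested. It was 2.55 log2 units for Irs2 (SE 0.64, limma adjusted p 0.0430) and 1.03 for Irs1 (SE 0.32, limma adjusted p 0.0658), so 1 of 10 members was called against 5.36% of all genes. The Irs2 controls of 1 day (4.62 to 7.97 FPKM) were lower than WT mice of 15 weeks (21.5, 10.9 and 16) and lower than each control of 3 weeks. The difference between controls of 1 day and uninjected mice was not called (-1.25, SE 0.43, limma adjusted p 0.421). In 7 of the fits that left out 1 library the Irs2 difference between times missed the threshold, with adjusted p up to 0.248 in limma without DKO replicate 2 of 3 weeks.

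Akt1, Akt2 and Grb14 were lower after deletion at 1 day. Akt1 read 12.5, 11.2 and 12.8 FPKM in controls and 9.25, 9.08 and 9.18 in DKO mice (-0.37, SE 0.11, limma adjusted p 0.0291), Akt2 19.2, 18 and 21.1 against 13.4, 15.1 and 16.0 (-0.37, SE 0.11, limma adjusted p 0.0299), and Grb14 17.9, 19.7 and 24.2 against 11.9, 14.7 and 15.1 (-0.53, SE 0.14, limma adjusted p 0.0168). The groups do not overlap in these 3 genes. They were 3 of 10 members, all lower, where 20.0% of all genes were called, 483 higher and 1745 lower with a median of -0.11, and the members' median was -0.35. Under quantile and upper quartile scaling Akt1 (-0.18 and -0.17, limma adjusted p 0.0698 and 0.0855) and Akt2 (-0.15 and -0.16) lost their calls and Grb14 kept its call. All 3 calls were lost without control replicate 3 or DKO replicate 1, where limma adjusted p for Grb14 was 0.0928 and 0.0849. The erythroid markers given above differed between these same libraries, as did Kupffer cell markers (4.83 to 8.43 FPKM in controls and 1.51 to 4.09 in DKO mice), and their part in the result was not tested. After deletion at 3 weeks Akt1 had 11.6 and 12.6 FPKM, Akt2 19.5 and 19.6 and Grb14 16 and 16.2, each with a log2 difference between -0.18 and 0.04 and no call.

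Foxo1 and Foxo3 read lower in the DKO mice of 1 day without passing the threshold. Foxo1 had 5.62, 8.46 and 6.92 FPKM in controls and 3.86, 3.93 and 5.53 in DKO mice (-0.56, SE 0.20, limma adjusted p 0.0634), and Foxo3 6.59, 7.10 and 7.72 against 4.77, 3.10 and 5.69 (-0.59, SE 0.25, limma adjusted p 0.109). In both genes all DKO values lay below all control values. After deletion at 3 weeks Foxo3 had 6.67 and 3.84 FPKM, overlapping its controls at 9.86, 6.43 and 4.32. Pik3r1 and Gsk3b, which kept methylation at many intronic tiles in the DKO, read 7.0, 6.86 and 6.17 and 3.69, 3.42 and 3.82 FPKM in the DKO mice of 1 day against 7.05, 8.09 and 5.18 and 3.73, 3.62 and 3.38 in controls, with log2 differences of 0.00 (SE 0.19) and 0.02 (SE 0.10). Gsk3b was lower in both DKO mice of 3 weeks (2.86 and 3.09 FPKM) than in their controls (3.72, 3.96 and 3.68), short of the threshold (limma adjusted p 0.157).

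**Figure D4:**
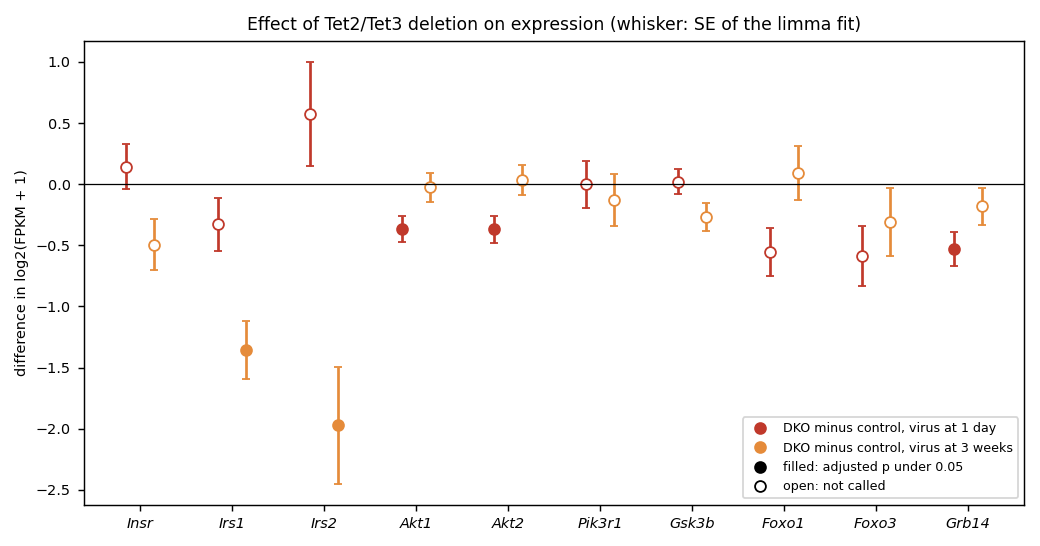
Log2 difference of each member between DKO mice and injected controls, with its standard error, for deletion at 1 day and at 3 weeks; filled points passed the threshold. Akt1, Akt2 and Grb14 are filled at 1 day (-0.37, -0.37 and -0.53) and Irs1 and Irs2 at 3 weeks (-1.36 and -1.97).

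Between 3 and 15 weeks 4 members differed in WT mice, where 33.3% of all genes were called and where age and sex cannot be told apart. Foxo1 was higher at 3 weeks, with 13.6, 10.7 and 18.2 FPKM against 6.42, 7.58 and 9.69 (0.76, SE 0.20, limma adjusted p 0.0101), as was Akt1, with 18.2, 14.7 and 19.5 against 13.6, 13.5 and 12.4 (0.37, limma adjusted p 0.0163). Irs1 was lower, with 2.88, 2.04 and 3.08 against 5.46, 3.89 and 5.72 (-0.71, limma adjusted p 0.0204), and so was Gsk3b, with 2.59, 2.03 and 3.14 against 4.60, 4.33 and 4.24 (-0.60, SE 0.10, limma adjusted p 0.000519). The groups do not overlap in these 4 genes. Kupffer and endothelial markers summed to 5.94 to 15.9 and 8.36 to 14.3 FPKM at 3 weeks against 1.18 to 2.23 and 1.38 to 3.56 at 15 weeks, and erythroid markers to 6.33 to 9.45 against 40 to 45.6 FPKM, and their part in these differences was not tested. Irs1 lost its call under upper quartile scaling (-0.46, limma adjusted p 0.116) and without WT replicate 2 of 3 weeks or replicates 1 or 3 of 15 weeks (adjusted p 0.0684 to 0.0831), Akt1 without replicate 3 of either age (adjusted p 0.0627 and 0.0564), and Foxo1 without replicate 1 of 15 weeks (adjusted p 0.0503, all limma).

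Against the single newborn library, Foxo3 was the only member that differed by more than 1 log2 unit from each of the 3 adult libraries. It read 3.29 FPKM in the newborn and 10.2, 8.35 and 11.8 at 15 weeks, a mean log2 difference of 1.37 (1.13 to 1.58), and 14.4% of all genes did so in either direction. The WT mice at 3 weeks lay between, at 5.75, 5.85 and 6.91 FPKM. Grb14 stood at 33.4 FPKM in the newborn and 22.3, 18.9 and 18.8 at 15 weeks. This newborn library also had the highest erythroid sum.

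The virus itself was checked by comparing the controls of 1 day with uninjected WT mice of 15 weeks. None of the 10 members and none of the 11166 genes was called by limma on the values as deposited, and 3 members had an unadjusted p below the threshold (Irs2 -1.25, Pik3r1 -0.64 and Gsk3b -0.24). Under quantile and upper quartile scaling some genes were called, of which 53.6% and 50% were higher in the injected controls. Pik3r1 read 12.0, 10.6 and 10.3 FPKM in uninjected mice and 7.05, 8.09 and 5.18 in controls of 1 day, without overlap.

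Over the 18 libraries, the 5 genes whose log2 levels ran closest to Insr were Cep350, Glg1, Apob, Usp45 and Synrg, with Pearson correlations of 0.928, 0.927, 0.924, 0.922 and 0.920. Among the members themselves Akt1 with Foxo1 (0.797) and Insr with Gsk3b (0.733) were the closest pairs. These libraries share ages and treatments, so the values describe this set of samples.

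Other genes of the pathway, from a list of 43 of which 36 could be tested, had 0 called higher and 8 lower (22.2%) after deletion at 1 day, with a median of -0.24, where 15.6% of all genes were called lower and 20.0% in either direction (3 of the list higher and 7 lower under quantile scaling, 3 and 5 under upper quartile scaling). Enpp1, a membrane protein that can inhibit the receptor, read 4.09 to 5.59 FPKM in controls and 2.01 to 2.33 in DKO mice (-0.89, limma adjusted p 0.0211). Ywhab (-0.62), Phlpp1 (-0.58), Mapkap1 (-0.51) and Grb2 (-0.47) were lower as well. After deletion at 3 weeks 4 were lower and 1 higher, where 5.25% of all genes were called (1 lower and 1 higher under quantile scaling, 5 and 1 under upper quartile scaling). The kinase Mtor read 6.71 to 11.7 FPKM in controls and 3.85 to 4.49 in DKO mice (-0.85, limma adjusted p 0.0401), its partner Rictor 4.15 to 4.73 against 1.76 to 2.74 (-0.78, limma adjusted p 0.0339), and the translation repressor Eif4ebp1 was higher, at 22.9 to 28.7 against 15.1 to 16 FPKM (0.68, limma adjusted p 0.0356). At 3 weeks of age 18 of the 36 were lower and 1 higher than at 15 weeks, where 24.0% of all genes were lower and 9.32% higher (9 and 1 under quantile scaling, 6 and 3 under upper quartile scaling).

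Genes that insulin or FOXO factors are known to control in liver (27 listed, 27 tested) had 4 called higher and 2 lower after deletion at 1 day, with a median of 0.03. None was called after deletion at 3 weeks, where 5.25% of all genes were called. The 6 called at 1 day are 22.2% of the list, near the 20.0% of all genes called, so the list did not stand out by its total count. By direction, 14.8% of the list was called higher and 7.41% lower, against 4.33% and 15.6% of all genes. Under quantile scaling 4 were higher and 1 lower, and under upper quartile scaling 5 and 1. The difference in direction was not tested. Pnpla3, a lipid droplet gene that insulin induces, read 0.0623 to 0.304 FPKM in controls and 6.05 to 10.8 in DKO mice (log2 difference 2.91 on the log2 scale of FPKM plus 1, limma adjusted p 4.66e-07). Elovl6, a fatty acid elongase, read 9.34 to 12.2 against 23.5 to 33.2 FPKM (1.31, limma adjusted p 0.000229), and Acaca, which starts fatty acid synthesis, 9.99 to 12.4 against 14.4 to 19.5 (0.49, limma adjusted p 0.0333). Igfbp1, a gene that FOXO1 drives and insulin represses, was higher too, at 327 to 790 against 129 to 326 FPKM (1.33, limma adjusted p 0.0408). Igf1 (-0.65) and the glycogen synthase gene Gys2 (-0.76) were lower, the latter not under the 2 other scalings.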

How the data were processed

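Expression was taken as the FPKM values that the authors deposited, made with TopHat2 and Cufflinks from single-end reads on mm9. The RRBS and WGBS tables hold deposited fractions of methylated CpG readings per tile of 100 and 200 bp, on mm9, aligned by the authors with BSMAP 2.74 after Trim Galore 0.3.3, with no coverage given, so the depth is unknown and no interval for counting error was possible. Peak files hold, per the file headers, a signal (tags scaled by HOMER to a common library size) and a HOMER score, called in each library separately after cutadapt 1.15 and Bowtie2 2.2.4, so tag sums were not compared between libraries. Per-sample values of 6 expression columns and 43 RRBS columns could not be tied to a label and were not used. RRBS columns were tied to groups by animal number, and replicate numbers here follow the order of columns within a group.

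FPKM values were filtered at a mean of 1 in at least 1 group and tested as log2(FPKM + 1) with limma 3.58.1 (R 4.3.3, moderated with a trend) over all 18 libraries, with Benjamini-Hochberg adjustment over 11166 genes at 0.05. A fold change on this scale understates the change of low genes. RRBS percentages were tested with limma over 304711 of 913286 tiles with values in at least 2 mice of each group, called at 0.05 and at least 35 points. For means over tiles an exact permutation test over mice (two-sided) was used. On simulated data with 2 log2 units added in the DKO libraries of 1 day, 199 of 200 changed genes were found, with 6 false calls. Smaller changes, such as most of those reported here, were not simulated. A promoter was 1000 bp before to 100 bp after a transcript start, and lost tiles at most 400 bp apart made a run. Python 3.11.15, pandas 2.3.3 and samtools 1.23.1 were used for the rest.

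The members and all lists were chosen with earlier results of these data known. Named were the 10 members, called tiles (up to 3 a gene and comparison), up to 3 WGBS tiles a gene with the largest fall, up to 6 called genes a list and deletion by size of change, and the 5 genes most like Insr. Other tiles, the 9 sequences printed and the tile runs were named after their values were seen. Alternatives were other scalings, pseudocounts, filters and limits, fits of fewer samples, and leaving out each replicate. Some items that the naming rules would include are not reported here.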

Additional observations from a re-analysis of the deposited data

Results flagged for a closer look

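The effect of deleting Tet2 and Tet3 differed between the times of injection, by a test of the difference itself (limma, Benjamini-Hochberg over all genes), in 1 member and 3 listed genes. The listed genes are 3 of 63 tested (4.76%), near the 5.36% of all genes called for this difference, so their number does not stand out. For Irs2 the effect at 1 day minus that at 3 weeks was 2.55 on the log2 scale (adjusted p 0.0430), for Elovl6 1.75 (adjusted p 0.00591), for Pnpla3 3.46 (adjusted p 2.99e-05, all limma) and for Eif4ebp1 -0.90 (limma adjusted p 0.0429). Pnpla3 and Elovl6 were higher in the DKO mice of 1 day than in their controls. No group held more than 3 libraries, so no search for single outlying samples was made.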

How the results depend on the processing

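Limits come from group sizes of 2 or 3, from 1 WGBS library a stage, and from tables without read counts or coverage, so depth could not be weighed. Of the expression results, members called after deletion at 1 day fell from 3 to 1 under quantile scaling, under upper quartile scaling and in a fit of only the groups compared. Those after deletion at 3 weeks fell from 2 to 1 with no filter on low values and to 0 in a fit of only the groups compared. Members whose effect differed between the times went from 1 to 0 with no filter and with only the groups compared, to 2 under quantile scaling (Irs1 added) and to 3 under upper quartile scaling (Irs1 and Gsk3b added). The Grb14 difference between 3 and 15 weeks changed sign, from -0.05 to 0.24 (limma adjusted p 0.0496) under quantile and 0.28 (0.0346) under upper quartile scaling. Over all genes the share of called genes that were higher went from 21.7% to 47.1% (quantile) and 56.2% (upper quartile) after deletion at 1 day, from 17.2% to 48.6% and 41.2% after deletion at 3 weeks, and from 28% to 51.9% and 67.8% between 3 and 15 weeks. These scalings set the median difference over all genes near 0, from -0.11 (1 day), -0.07 (3 weeks) and -0.16 (age), the last to 0.09 under upper quartile scaling.

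Leaving out each replicate in turn gave 0 to 3 called members after deletion at 1 day, 0 to 2 after deletion at 3 weeks, 2 to 4 between 3 and 15 weeks, 0 between controls and uninjected mice, and 0 to 1 for the difference between times. Called RRBS tiles ranged from 6 to 10 (1 day), 2 to 3 (3 weeks), 0 to 5 (InsR KO) and 1 to 3 (WT at 3 weeks). The last count was 1 at a limit of 50 points. Without the InsR KO mice the counts were 18, 7 and 7. WGBS tiles with a loss numbered 411 at 25 points and 135 at 50 points. With the lower-scoring 50% of each peak list left out, peaks inside members numbered 28 and 31 (ATAC, WT), 26 and 40 (ATAC, DKO), 3 and 5 (HNF6, WT), 7 and 16 (HNF6, DKO), 66 and 68 (H3K27ac, WT and DKO), 37 and 49 (H3K4me1, WT and DKO) and 53 (5hmC), since fewer peaks were counted. When gene values were medians over tiles, 27 of the 40 gene differences moved by more than the spread between mice. Where no construction of an alternative is named, the cause of a change was not tested. No paired analysis was possible between groups because the columns carry no replicate numbers of the labels. The peak and WGBS counts come from no test. RRBS columns of WT, control and DKO mice share animal numbers with RNA columns, but the relation of methylation to RNA within an animal was not tested.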

Other observations

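Other RRBS columns gave values at the tiles of these genes. At Irs1 chr1:82241701-82241800, where adult control hepatocytes read at most 20.0% and DKO mice injected at 1 day 96.7% and 97.6%, fat of 25 weeks and neutrophils of 36 weeks both read 0%, and hepatocytes of 1 week kept in vitro 47.6% and 90.0%. At Pik3r1 chr13:102528101-102528200, low in adult hepatocytes as well, fat read 33.8%, neutrophils 2.84% and the in vitro hepatocytes 43.9% and 41.4%. At the Insr tile chr8:3252701-3252800 neutrophils read 100%, fat 53.3% and in vitro hepatocytes 96.9%, where adult control hepatocytes read at most 6.67%. At the Gsk3b tile chr16:38118001-38118100, which shares words with a repeat, fat (87.2%) and neutrophils (93.1%) were methylated too. With 1 column of fat and 1 of neutrophils these values have no replicate check.

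Methylation and RNA of single members are set side by side here as values only. Foxo3 lost methylation at 61 WGBS tiles between newborn and adult and read 3.29 FPKM in the newborn and 8.35 to 11.8 FPKM in adults. Pik3r1 lost it at 59 tiles and read 13.3 FPKM in the newborn and 10.3 to 12.0 FPKM in adults. Irs2 lost it at none and read 20.1 FPKM in the newborn and 10.9 to 21.5 FPKM in adults. Irs2, with no lost tile, and Irs1, with 16, were the members called lower after deletion at 3 weeks.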
